A study of Solanum lycopersicum with 4 samples.

Results

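The anthocyanin regulators of tomato (Solanum lycopersicum) form a complex of a MYB, a bHLH and a WD40 protein, and 7 of their genes were followed over 48 h at 10 °C in leaves. They were picked by gene identifier, and 6 of the 7 are among the 26219 genes listed in at least 1 of the deposited files. They comprise the R2R3-MYB activators AN2 (Solyc10g086250), ANT1 (Solyc10g086260) and AN2-like (Solyc10g086290) on chromosome 10, the bHLH proteins AN1 (Solyc09g065100, chromosome 9) and JAF13 (Solyc08g081140, chromosome 8), the WD40 protein AN11 (Solyc03g097340, chromosome 3) and the R3-MYB repressor MYB-ATV (Solyc07g052490, chromosome 7). Chromosomes were read from the identifiers. In a RefSeq gene table of another assembly, 4 of the 7 were found by a symbol or synonym, each on the chromosome its identifier gives. They were ANT1, JAF13, AN2 (listed as MYB75) and MYB-ATV (listed as ATV). That table holds none of these identifiers, so the match rests on name and chromosome alone.

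All leaves came from cultivar Moneymaker, with no other genotype in the comparison. Per the labels, the first true-leaf pair of 3-week-old seedlings was harvested at 0, 3, 24 and 48 h of exposure to 10 °C, with 1 RNA-seq library at each time. Growth before the treatment was at 25 °C and a light level of 100 µmol m-2 s-1, and the cold chamber gave 40 µmol m-2 s-1, with a 12 h photoperiod in both cases. The title of the 0 h library also names 10 °C, and the labels do not otherwise give its conditions at harvest. Temperature and light cannot be told apart in the ratios to 0 h, and the 3 h leaves were also due at another hour of the day than the others. Each time has 1 library and the number of plants behind it is unknown here, so all differences are between libraries, with no p-value and with intervals that cover counting error only.

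Anthocyanins are red to purple flavonoid pigments that many plants accumulate in leaves under cold or strong light. In the complex, the MYB protein selects the promoters, the bHLH protein binds both the MYB and the WD40 protein, and the complex switches on the late enzymes of pigment synthesis, such as dihydroflavonol reductase. JAF13 is known to act upstream of AN1, whose gene is itself a target of the complex, and R3-MYB proteins such as MYB-ATV compete with the activators for the bHLH partner. In fruit of cultivated tomato, AN2-like transcripts are known to be mis-spliced, and deep purple fruit combines an introgressed allele with loss of MYB-ATV.

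The libraries held between 35.7 M (24 h) and 38.5 M (0 h) unique reads (M, 1000000 reads), and between 24049 (3 h) and 24472 (48 h) genes were listed in each. Of the 7 regulators, 6 were listed in all 4 libraries, and 4 (AN2, AN1, JAF13 and AN11) reached the mean of 5 CPM (counts per 1000000 reads, after TMM scaling of the libraries) that was required of the 13840 genes used as background. ANT1 and MYB-ATV lay below it, so their values rest on few reads. Leaf marker genes could not be looked up, because the sources used here pair no other identifier with a name.

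AN2, AN1, JAF13 and MYB-ATV had higher levels at 24 and 48 h than at 0 h, AN11 stayed near its 0 h level at those times, and ANT1 and AN2-like had almost no reads at any time. At 24 h, 3 of the 7 genes (AN2, AN1 and MYB-ATV) were at least 2-fold above 0 h, beside 9.65% of the background genes. At 48 h these 3 genes again passed 2-fold, beside 10.0% of the background. None was 2-fold lower at either time, beside 8.28% and 8.48%. In every comparison AN2-like, with 0 reads, could pass in neither direction. ANT1, with at most 5 reads beside a pseudocount of 5 reads, had almost no room to be called lower. At 3 h only AN2 reached 2-fold, beside 4.76% of the background, and none was 2-fold lower, beside 1.13%. At the 4-fold level AN2 and MYB-ATV were higher at 24 h and AN2 at 48 h, beside 2.17% and 2.06%. Over the 4 genes that reached the 5 CPM of the background, the median log2 ratios to 0 h were 0.23 (3 h), 1.13 (24 h) and 1.18 (48 h). Over the background genes they were 0.0024, 0.023 and 0.0046. Over all 6 listed genes, which adds ANT1 and MYB-ATV, they were -0.18, 1.13 and 0.96. The sign of the median at 3 h thus depends on these genes of few reads. These log2 ratios include a pseudocount of 5 reads. The comparisons with 0 h share its single library, and in whole leaves a change in the share of cells that hold a transcript and a change of its amount per cell cannot be told apart.

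**Figure D1:**
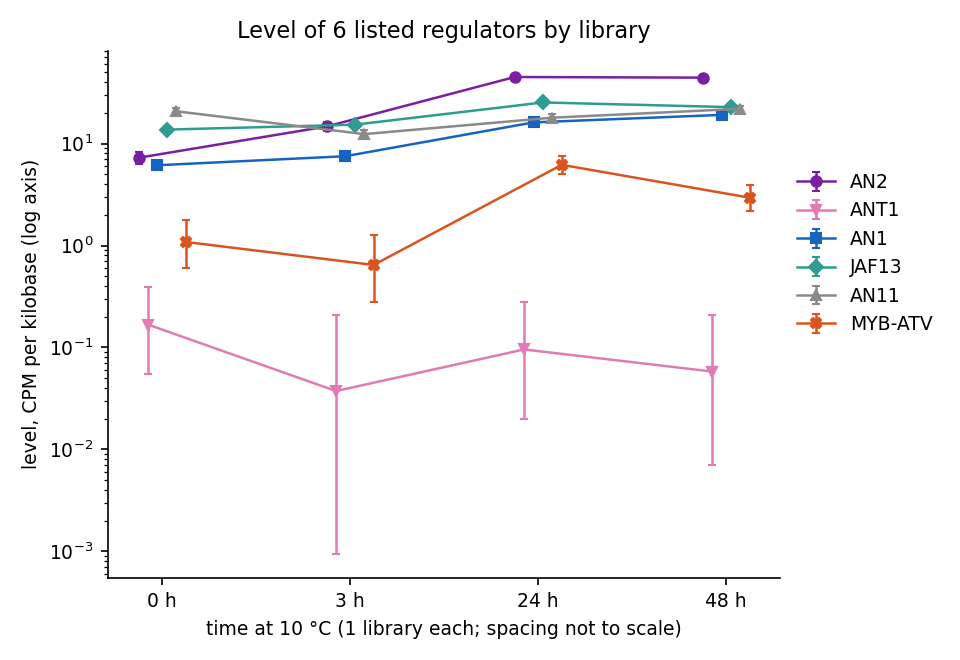
Level of each listed regulator, in CPM after scaling and per kilobase of gene length on a log axis, in the 0, 3, 24 and 48 h libraries, with 95% Poisson counting intervals. AN2 lies below AN11 and JAF13 at 0 h and above all others at 24 and 48 h, at 44.9 and 44.3 CPM per kilobase, while ANT1 lies at or below 0.17 in every library.

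Of the summed reads of AN2 and ANT1, AN2 carried nearly all, and AN2-like was listed in none of the libraries. AN2 had 217, 394, 1412 and 1529 reads in the 0, 3, 24 and 48 h libraries. The 2 later libraries were high and alike, the 3 h library lay between, and the 0 h library was lowest. In scaled counts without a pseudocount AN2 was 2.03-fold above 0 h at 3 h (95% interval 1.71 to 2.40), 6.19-fold at 24 h (5.36 to 7.17) and 6.10-fold at 48 h (5.29 to 7.07). With the pseudocount its log2 ratios were 1.00, 2.60 and 2.58. The 2-fold call at 3 h is on the edge of the threshold, since its log2 ratio was 0.94 when libraries were scaled by their plain totals. Only 0.87% of the background genes had a larger ratio at 24 h and 0.85% at 48 h, against 4.75% at 3 h. From 24 to 48 h the scaled count of AN2 changed by a ratio of 0.99 (0.92 to 1.06), an interval that includes no difference.

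ANT1, a close relative of AN2 that is known to give purple tissue when overexpressed, had 5, 1, 3 and 2 reads in the same order. These counts are at or near the 3 reads that a count of 0 allows, and no time stood apart. The ratio of 48 h to 0 h was 0.35, with an interval of 0.033 to 2.12. ANT1 made up 2.25% (exact interval 0.74 to 5.18) of the summed reads of AN2 and ANT1 at 0 h and 0.13% (0.016 to 0.47) at 48 h. The denominator of that share grew with AN2 and leaves out the unnamed neighbours on chromosome 10 described below. AN2-like was listed in none of the 4 libraries, which stands for 0 reads and allows a level of up to 0.093 CPM at 3 h and up to 0.083, 0.079 and 0.072 CPM at 0, 24 and 48 h. Whether the annotation behind the files held this gene is not stated by the headers or labels.

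The MYB activators lie close together on chromosome 10, and unique counting can split or drop reads of similar neighbours. The identifiers between ANT1 and AN2-like, Solyc10g086270 and Solyc10g086280, have no name in the sources used here and were examined only for that reason. Solyc10g086270 had 238, 209, 630 and 807 reads at 0, 3, 24 and 48 h. At 3 h it lay near its 0 h level, at 0.98-fold (0.81 to 1.18), where AN2 was already higher. At the later times it was above 0 h, as AN2 was, by 2.52-fold at 24 h (2.17 to 2.93) and 2.94-fold at 48 h (2.54 to 3.41). Solyc10g086280 had 605, 1452, 242 and 448 reads, with its highest count at 3 h and its lowest at 24 h. At 24 h it was 2.63-fold below 0 h, while AN2 was 6.19-fold above. Reads covered from 97.0% to 99.2% of the length of AN2. Whether reads were exchanged between these genes was not tested.

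The bHLH genes were both higher at the later times, AN1 more than JAF13. AN1, the bHLH protein whose gene the complex is known to activate, had 452, 497, 1251 and 1627 reads in the 0, 3, 24 and 48 h libraries. Its scaled count was 1.23-fold above 0 h at 3 h (1.08 to 1.40), 2.63-fold at 24 h (2.36 to 2.94) and 3.12-fold at 48 h (2.81 to 3.47). Unlike AN2, AN1 was also higher at 48 h than at 24 h, by 1.18-fold (1.10 to 1.28), in an interval that does not meet that of AN2. At 48 h, 3.60% of the background genes had a larger ratio to 0 h than AN1.

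JAF13 had 1192, 1195, 2314 and 2286 reads in time order, with higher counts in the later pair of libraries than in the earlier pair. Its scaled count was 1.12-fold above 0 h at 3 h (1.03 to 1.21), 1.85-fold at 24 h (1.72 to 1.98) and 1.66-fold at 48 h (1.55 to 1.78). It stayed short of 2-fold at all times with this scaling. With plain library totals its log2 ratio at 24 h was 1.06, past 2-fold. At 3 h it was 0.10, against 0.16 with TMM scaling. Since the raw counts at 0 and 3 h were almost equal, the small difference at 3 h depends on the scaling. At 24 h, 11.8% of the background genes had a larger ratio.

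AN11, the WD40 protein that holds the complex together and is known to be made in most tissues, had 770, 412, 701 and 940 reads in the 0, 3, 24 and 48 h libraries. The 3 h library was the low one. Its scaled count was 1.68-fold lower at 3 h than at 0 h (1.48 to 1.89) and 1.16-fold lower at 24 h (1.04 to 1.28). At 48 h the ratio to 0 h was 1.06 (0.96 to 1.16), which includes no difference. With plain library totals its log2 ratio to 0 h was -0.03 at 24 h and 0.33 at 48 h, against -0.21 and 0.08 with TMM scaling. The readings at these 2 times thus depend on the scaling. Only 2.75% of the background genes had a smaller ratio than AN11 at 3 h, although the difference was short of 2-fold. AN11 and AN2 thus lay on opposite sides of 0 h at 3 h, with intervals of 0.53 to 0.67 and 1.71 to 2.40.

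MYB-ATV, the repressor, had 15, 8, 90 and 47 reads in the 0, 3, 24 and 48 h libraries. The 24 h library was highest, the 48 h library lay between, and the 2 early libraries were low. The reads covered 70.8% of the gene at 0 h and 65.5% at 24 h, so the higher count did not come with wider coverage. The intervals below take its reads as independent. Its scaled count was 5.71-fold above 0 h at 24 h (3.28 to 10.6) and 2.71-fold at 48 h (1.49 to 5.23). At 3 h the ratio was 0.59 (0.22 to 1.49), too few reads to show a difference. The 2-fold call at 48 h depends on the pseudocount, since the log2 ratio was 0.72 with 25 reads. Between 24 and 48 h MYB-ATV was 2.10-fold lower (1.46 to 3.06), and its log2 ratio with the pseudocount, -0.99, fell just short of 2-fold. Among the 2970 genes with a mean of 0.5 to 2 CPM, a range chosen after seeing the data to hold MYB-ATV, 14.8% passed 2-fold upward from 0 to 24 h and 4.11% passed 4-fold. From 0 to 48 h, 15.6% of them passed 2-fold upward. From 24 to 48 h, 3.94% of them were at least 2-fold lower.

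**Figure D2:**
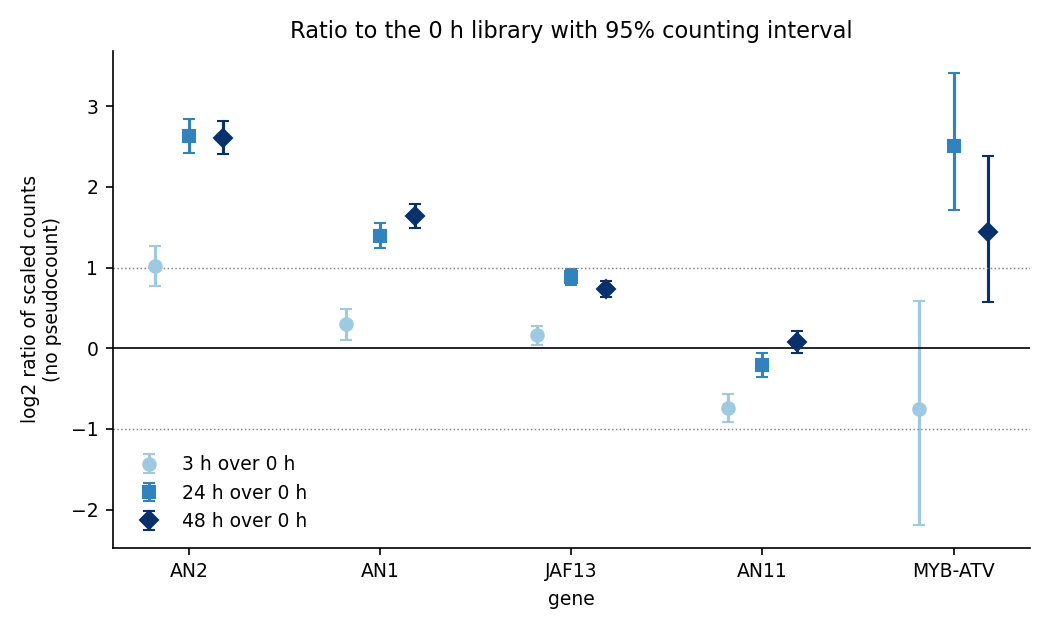
Log2 ratio of scaled counts to the 0 h library, without a pseudocount, for AN2, AN1, JAF13, AN11 and MYB-ATV at 3, 24 and 48 h, with exact 95% counting intervals. Dotted lines mark 2-fold. At 24 h AN2 and MYB-ATV lie highest, at 2.63 and 2.51, and AN11 lies at -0.21.

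The comparison of 24 h with 3 h does not use the 0 h library, but it shares the 24 h library with the comparison to 0 h. The 3 h leaves were also due at another hour of the day. From 3 to 24 h AN2, AN1 and MYB-ATV passed 2-fold, where 8.24% of the background genes were that much higher. MYB-ATV passed 4-fold, beside 1.78% of the background and 3.57% of the genes of 0.5 to 2 CPM. None was 2-fold lower, beside 9.45%. AN2 was 3.06-fold higher (2.73 to 3.42), AN1 2.15-fold (1.93 to 2.39) and MYB-ATV 9.59-fold (4.66 to 22.9). JAF13 was 1.65-fold higher (1.54 to 1.77) and AN11 1.45-fold (1.28 to 1.64). Between 24 and 48 h none of the 7 genes differed by 2-fold with the pseudocount, beside 1.12% of the background genes 2-fold higher and 1.47% 2-fold lower.

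**Figure D3:**
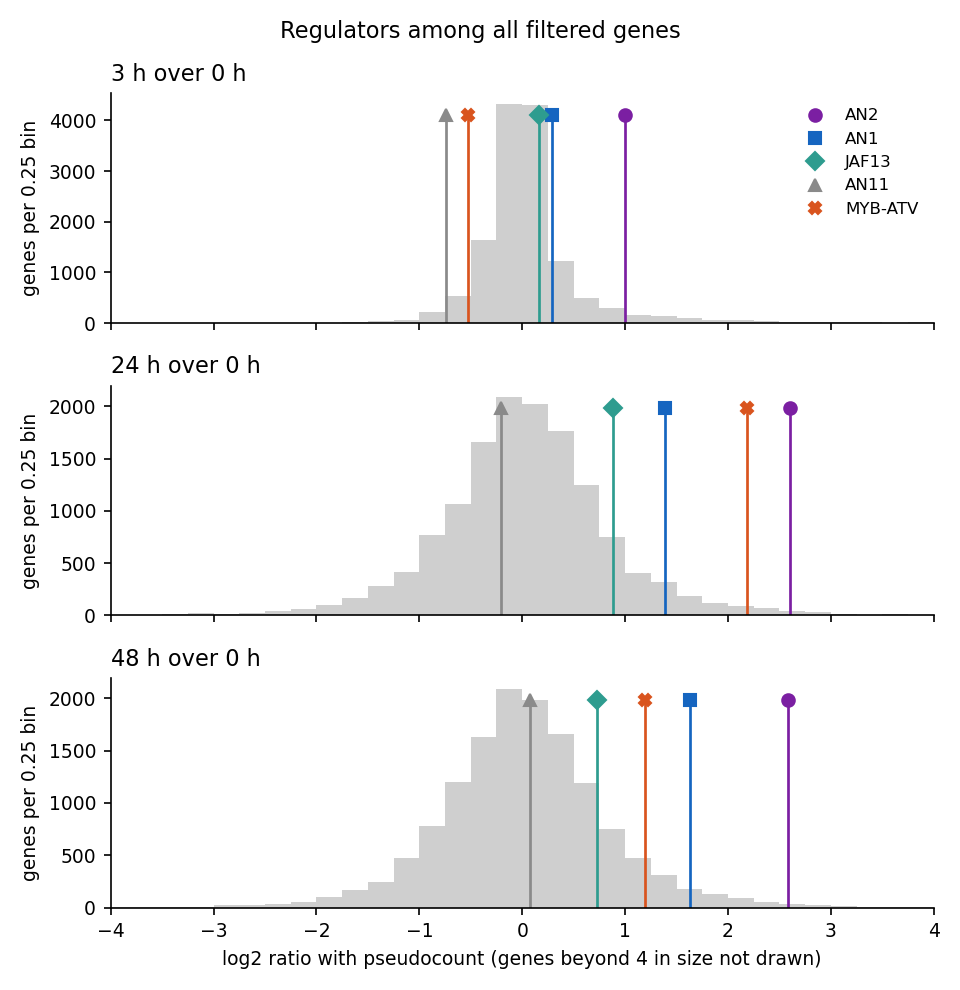
Histograms of the log2 ratio to 0 h, with the pseudocount, of the 13840 background genes at 3, 24 and 48 h, in bins of 0.25, with lines at the values of 5 regulators. AN2 lies at 1.00, 2.60 and 2.58, in the upper tail at 24 and 48 h, and AN11 lies at -0.74, -0.21 and 0.08. MYB-ATV is drawn for comparison, as its mean was below the 5 CPM required of the background.

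Per kilobase of gene length, the order of the regulators changed with time. At 0 h AN11 led with 20.7 CPM per kilobase (19.3 to 22.2), followed by JAF13 with 13.7 (12.9 to 14.5), AN2 with 7.25 (6.32 to 8.28), AN1 with 6.12 (5.57 to 6.71), MYB-ATV with 1.08 (0.61 to 1.79) and ANT1 with 0.17 (0.054 to 0.39). The intervals of AN2 and AN1 overlapped, although their ratio inside the library, 1.18 (1.003 to 1.40), just excluded 1. At 3 h JAF13 (15.3), AN2 (14.7) and AN11 (12.4) came first, and the intervals of neighbours among these 3 overlapped. Those of JAF13 (14.4 to 16.2) and AN11 (11.2 to 13.6) were apart.

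At 24 h AN2 led with 44.9 CPM per kilobase (42.6 to 47.3), ahead of JAF13 with 25.3 (24.2 to 26.3), AN11 with 17.9 (16.6 to 19.3) and AN1 with 16.1 (15.2 to 17.0), and the intervals of AN11 and AN1 overlapped. At 48 h AN2 was again first with 44.3 (42.1 to 46.5), JAF13 and AN11 could not be told apart at 22.7 (21.8 to 23.7) and 21.9 (20.5 to 23.3), and AN1 followed with 19.1 (18.2 to 20.04). MYB-ATV stayed above ANT1 and below the others, with 6.18 (4.97 to 7.60) at 24 h and 2.94 (2.16 to 3.91) at 48 h. Inside each library the authors' deposited RPKM gives the same order by construction, since both measures divide the same reads by the same length. In RPKM, AN2 had 6.80 at 0 h and 49.4 at 48 h.

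Ratios between regulators inside 1 library do not depend on how libraries are scaled. Per kilobase, AN2 stood at 1.18 times AN1 at 0 h (1.00 to 1.40), 1.96 times at 3 h (1.71 to 2.24), 2.78 times at 24 h (2.58 to 3.01) and 2.32 times at 48 h (2.16 to 2.49). Transcripts of AN2 thus exceeded those of AN1 most at 24 h. AN1 stood at 0.45 times JAF13 at 0 h (0.40 to 0.50), 0.49 at 3 h (0.44 to 0.55), 0.64 at 24 h (0.59 to 0.68) and 0.84 at 48 h (0.79 to 0.90). The intervals at 0 and 3 h overlap, and those at 24 and 48 h are apart from them and from each other, so AN1 gained on JAF13 between these libraries.

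The repressor MYB-ATV stood at 0.18 times AN1 per kilobase at 0 h (0.098 to 0.30), 0.086 at 3 h (0.037 to 0.17), 0.38 at 24 h (0.31 to 0.48) and 0.15 at 48 h (0.11 to 0.21). The 24 h library was above the other 3, whose neighbouring intervals overlap. Set against AN2, the ratio was 0.15 at 0 h (0.082 to 0.25), 0.044 at 3 h (0.019 to 0.087), 0.14 at 24 h (0.11 to 0.17) and 0.066 at 48 h (0.049 to 0.089). Relative to AN2, therefore, the 0 and 24 h libraries were alike within counting error and the other two were lower than the 24 h library, although the intervals at 3 and 48 h still met that of 0 h.

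**Figure D4:**
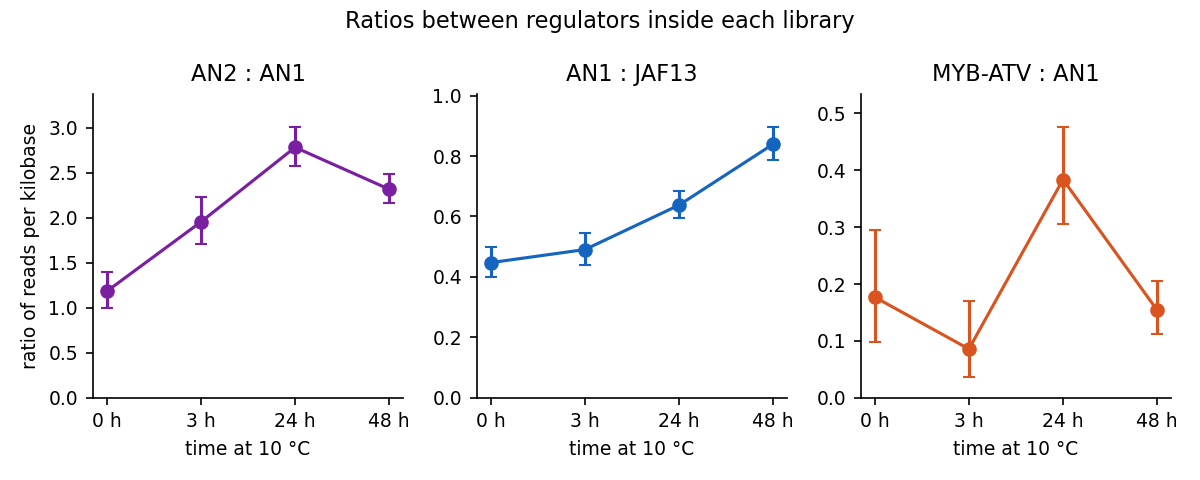
Ratio of reads per kilobase between 2 regulators inside each library, on axes that start at 0, with exact 95% counting intervals. AN2 to AN1 is highest at 24 h (2.78), AN1 to JAF13 is highest at 48 h (0.84), and MYB-ATV to AN1 is highest at 24 h (0.38).

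The course of AN2 over the 4 libraries was shared by few other genes. Within a root mean square distance of 0.5 in the 3 log2 ratios to 0 h lay 49 of the 13839 other background genes for AN2, against 850 for AN1, 3888 for JAF13 and 3730 for AN11. Courses near the middle of all genes have more neighbours, so these counts follow in part from the size of the ratios. The nearest genes to AN2 were Solyc04g071890, at a distance of 0.11 with 310, 595, 1795 and 2102 reads, and Solyc05g012210, at 0.18 with 399, 623, 2409 and 2399 reads. The likeness rests on 3 ratios that share the 0 h library.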

How the data were processed

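Each gene's row held, per the file headers, a count of unique reads, a length, the percent of that length covered and an RPKM value. No header or label names the aligner, counting tool, strand setting, build or annotation, so reads of antisense or overlapping genes cannot be told apart. The deposited counts were whole and summed to the total in each header. The authors' deposited RPKM uses that total alone to scale libraries. The deposited coverage percent was used as a description.

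A gene absent from a file was taken as 0 reads. Counts were scaled with TMM (edgeR 4.0.16, R 4.3.3; factors 0.94, 0.90, 1.06 and 1.12 in time order). Log2 ratios used CPM plus 0.135, which is 5 reads in a library of mean size. Folds of single genes have no pseudocount and carry exact Clopper-Pearson 95% intervals; levels carry exact Poisson 95% intervals. Both hold counting error only and take each read as independent. Reads that lack molecular identifiers may be copies of 1 molecule, which would make these intervals too narrow. A count of 0 allows 3 reads. Background genes were listed in all 4 files with a mean of at least 5 CPM. With 1 library per time no test was run. The computation was checked on simulated counts that held counting error only, with known folds set in genes of many reads. That check does not cover genes of few reads, such as MYB-ATV and ANT1, or spread between libraries.

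All 7 regulators are named whatever their values. Of other genes, the text names those between them on chromosome 10 and the 2 nearest in course to the filtered regulator with the largest ratio at 48 h. Other genes of the pathway were not counted, as no source used here pairs an identifier with a name, including the RefSeq table of 41476 genes (assembly SLM_r2.1). The members and lists were chosen with earlier results of these data known. Alternatives used size factors from DESeq2 1.42.0, plain totals, a pseudocount of 0.5 or 25 reads, all genes without a filter, and a mean of 20 CPM. The range of 0.5 to 2 CPM, the ratios that involve AN2 and the coverage comparison were added after seeing the data.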

Additional observations from a re-analysis of the deposited data

Results flagged for a closer look

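Steps between consecutive libraries went in opposite directions for 3 regulators, with counting intervals under TMM scaling that excluded no change on each side. The log2 ratio of MYB-ATV was 2.71 from 3 to 24 h and -0.99 from 24 to 48 h. That of AN11 was -0.74 from 0 to 3 h, 0.53 from 3 to 24 h and 0.29 from 24 to 48 h. That of JAF13 was 0.16 from 0 to 3 h, 0.72 from 3 to 24 h and -0.15 from 24 to 48 h. With plain library totals its first and last steps were 0.10 and -0.08, so these small steps of JAF13 depend on the scaling. Consecutive steps share the library between them. With 1 library per time, the difference between steps was not tested.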

How the results depend on the processing

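No paired analysis was possible because there is only 1 library for a time, which also leaves no replicate to omit. With DESeq2 size factors or pseudocounts of 0.5 and 25 reads, all 30 ratios of the 6 listed genes moved by less than the half-width of their counting interval. With plain library totals 19 did and 11 moved further, and none of at least 2-fold changed sign. That scaling puts the median log2 ratio of the background at 0.20 (24 h) and 0.25 (48 h) against 0 h and at 0.24 for 24 h against 3 h. Over these settings AN2 ranged from 2.48 to 2.83 in its log2 ratio to 0 h at 48 h, and MYB-ATV from 1.48 to 2.47 at 24 h. Genes 2-fold higher at 3 h numbered 0 instead of 1 with plain totals and with 25 reads, the gene lost being AN2. With 25 reads, 1 instead of 2 genes was 4-fold higher at 24 h than at 0 h, 0 instead of 1 at 24 h than at 3 h, and 2 instead of 3 were 2-fold higher at 48 h than at 0 h, the gene lost being MYB-ATV each time. With 0.5 reads, 1 gene instead of 0 was 2-fold lower at 3 h, at 48 h, and at 48 h against 24 h. At 3 and 48 h it was ANT1, whose 1 and 2 reads are below the limit that a count of 0 allows, and in the last comparison MYB-ATV, at -1.06. With 0.5 reads ANT1 also passed 2-fold upward between 3 and 24 h, which made 4 genes instead of 3, and with plain totals JAF13 made 4 instead of 3 between 0 and 24 h. The order of levels per kilobase did not depend on the scaling, by construction. The number of genes that pass, 4, was 6 without a filter and 3 at 20 CPM. The background share 2-fold lower at 3 h went from 1.13% to 2.81% without a filter and to 0.494% at 20 CPM, and the share 2-fold higher from 24 to 48 h went from 1.12% to 2.45% without a filter. The other 2-fold shares stayed within 1.5 times.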

Other observations

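Reads of MYB-ATV covered at most 70.8% of its listed length of 383 bases, also in the libraries with the most reads. They covered 70.8% of it with 15 reads at 0 h, 51.7% with 8 reads at 3 h, 65.5% with 90 reads at 24 h and 61.9% with 47 reads at 48 h. Genes of 300 to 500 bases with a read count within 25% of it had a median coverage of 70.9% at 0 h and 49.8% at 3 h, close to MYB-ATV, but 94.0% (138 genes, quartiles 82.7% and 96.7%) at 24 h and 86.7% (127 genes, quartiles 77.5% and 94.9%) at 48 h. At these later times 12.3% and 11.0% of such genes had a lower coverage than MYB-ATV. Part of the listed length thus held no read in the libraries with the most reads, and the level per kilobase of MYB-ATV would be higher over the covered part alone. Since 90 reads at 24 h covered less than 15 reads at 0 h, some bases read at 0 h were unread at 24 h. The folds of MYB-ATV and their intervals take its reads as independent, which was not tested. Which part it is cannot be read from these values.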
